A study of Triticum aestivum with 6 samples.

Results

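Em, LEA1, Rab15 and COR410 are genes of late embryogenesis abundant (LEA) proteins and dehydrins in bread wheat, Triticum aestivum. The wheat GeneChip carried 5 of them on 10 probe sets, out of 61179 probe sets tested and 771 genes that the platform annotation names. The members were taken by probe set name for 9 probe sets and by the annotated gene for 1 more, a further probe set of Rab15. They were EM (LOC543497) with 2 probe sets, Em/EMH2 (LOC543480) with 3, LEA1 (LOC543476, also PMA2005) with 1, Rab15 (LOC543293) with 3 and COR410 (also WCOR410) with 1.

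RNA came from embryos of mature AC Domain seeds after 48 h of imbibition, the uptake of water by the dry seed. Up to anthesis every mother plant had days of 22 °C, nights of 18 °C and a photoperiod of 16 h light to 8 h dark, and the plants then ripened their grain at 13 °C in one group or 28 °C in the other. Each group had 3 arrays, named here by temperature and replicate number, which the labels call biological replicates without saying what separates them, so the p-values measure the spread between these samples only. Growth to anthesis, genotype, seed stage and imbibition time were the same in both groups, and the labels record no dry seed or other imbibition time. The comparison asks how the temperature of grain filling relates to transcript levels in the embryo once the seed has taken up water.

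LEA proteins are very hydrophilic proteins that build up in the embryo as the seed dries and are thought to protect membranes and proteins from water loss. Their transcripts respond to abscisic acid, the hormone that holds seeds dormant, and in wheat they normally disappear as a seed germinates. Em belongs to group 1 of the family, LEA1 belongs to group 3, and Rab15 and COR410 are dehydrins, group 2, of which COR410 is known from cold-acclimated wheat, where it lies near the plasma membrane.

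The values are log2 signals that the authors made with RMA, which gives every array nearly the same distribution, so that only changes relative to the rest of the array can be read. Correlations over tested probe sets were 0.993 to 0.997 within a temperature and 0.953 to 0.964 between temperatures. Array 1 of 13 °C had the highest hybridisation controls, with 12.07 against 10.78 to 11.45 on the other arrays, and array 2 of 13 °C had the widest 3-prime to 5-prime gap of sucrose synthase, a sign of RNA length, with 7.91 against 6.36 to 6.90. Every array of 13 °C had a wider such gap than every array of 28 °C. As a guide to background, 4.71 was the highest mean of any unspiked control probe set. Differences are 13 °C minus 28 °C, tested with limma over all probe sets with Benjamini-Hochberg adjustment and a threshold of 0.05.

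On the probe sets of both Em genes, embryos from grain ripened at 13 °C held 4.87 to 6.22-fold more transcript on the deposited values. Both EM probe sets are marked as sharing probes with other transcripts, so a rise of EM itself is not shown apart from related copies. LEA1 was 1.83-fold higher on the deposited values, a call that was lost when the arrays were scaled to either set of spiked controls (0.24, adjusted p = 0.518, and 0.41, adjusted p = 0.803). Rab15 was past the threshold on only 1 of its 3 probe sets, and COR410 was below the background guide on all 6 arrays. Of the 10 member probe sets, 7 rose and 1 fell at 13 °C and 2 did not pass, where 18.5% of all tested probe sets were called higher and 15.1% lower. The 2 temperatures did not overlap for 6 members that were higher and 1 that was lower, against 25.6% and 18.7% of all tested probe sets. The members' median difference was 1.59, beside 0.062 over all tested probe sets. That median falls in a gap, so no member shows a difference of its size. All Em probe sets were at 2.28 or more and all other members at 0.90 or less. A rise of at least 4-fold that also passed the test was found for 5 members, all of them Em, where 0.381% of all tested probe sets had one. With the arrays scaled to either set of spiked controls, only Ta.2798.1.S1_x_at of EM stayed at 4-fold or more, at 2.01 and 2.18. With arrays 1 and 2 of 13 °C left out together, an alternative chosen after seeing the data, 8 members were called higher and 0 lower, and 7784 and 6747 of all tested probe sets. That leaves 1 array of 13 °C, which is assumed to vary like the 3 of 28 °C, from which all of the spread then comes. RNA of the whole embryo cannot tell more RNA per cell from more cells that hold the transcript.

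**Figure D1:**
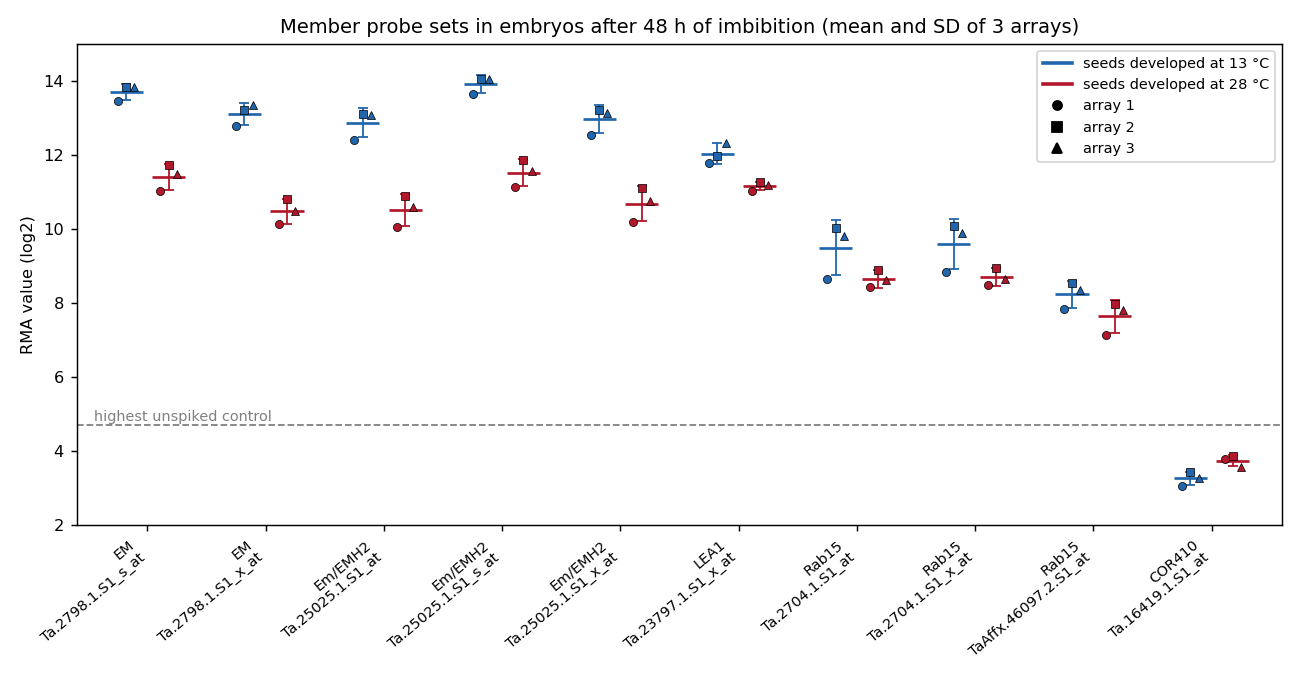
RMA values (log2, vertical axis) of the 10 member probe sets on the 6 arrays, in blue for 13 °C and red for 28 °C, with a marker shape for each array number, a bar at the mean of 3 arrays and error bars of 1 SD. The 5 Em probe sets and LEA1 show groups that are apart, the 3 Rab15 probe sets overlap, and COR410 lies under the dashed line at 4.71, the highest unspiked control.

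EM encodes the group 1 LEA protein of the mature embryo. On probe set Ta.2798.1.S1_x_at it was at 12.77, 13.21 and 13.35 on the arrays of 13 °C and at 10.12, 10.80 and 10.50 on those of 28 °C. The lowest array of 13 °C was 1.97 above the highest of 28 °C. The means were 13.11 ± 0.30 (SD, n = 3) and 10.47 ± 0.34, a difference of 2.64 ± 0.19 (SE; limma adjusted p = 1.12e-05), or 6.22-fold with a 95% confidence interval of 4.58 to 8.44. Of the 61179 differences 70 were larger, or 0.114%.

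The second EM probe set, Ta.2798.1.S1_s_at, read 13.45, 13.83 and 13.83 at 13 °C and 11.03, 11.73 and 11.48 at 28 °C. These groups were also apart, by 1.72. Its difference was 2.29 ± 0.18 (SE; limma adjusted p = 1.66e-05), or 4.90-fold with an interval of 3.69 to 6.51. The EM probe sets therefore gave unequal sizes: the _s_at minus _x_at value was 0.68, 0.62 and 0.48 on the arrays of 13 °C and 0.90, 0.92 and 0.99 on those of 28 °C, a change of -0.34 (exact two-sided permutation p = 0.1, the smallest that 3 arrays against 3 can give). The highest tested values on the arrays were 14.83 to 14.96 over both groups, so the _s_at values of 13 °C lay near the top of the scale. The part of this in the change was not tested.

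Em/EMH2 is a second gene of the same group 1 protein. The suffixes _s_at and _x_at mark probe sets that share some or all probes with other transcripts, and Ta.25025.1.S1_at is the one Em member without such a suffix. It was at 12.41, 13.10 and 13.09 on the 13 °C arrays and at 10.06, 10.90 and 10.59 on the 28 °C arrays. All arrays of 13 °C lay at least 1.52 above all of 28 °C. The difference was 2.35 ± 0.24 (SE; limma adjusted p = 6.99e-05), or 5.11-fold with an interval of 3.51 to 7.44.

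The shared probe sets of Em/EMH2 gave close to the same size. Ta.25025.1.S1_s_at was at 13.64, 14.06 and 14.05 at 13 °C and at 11.14, 11.85 and 11.58 at 28 °C, a difference of 2.39 ± 0.19 (SE; limma adjusted p = 1.57e-05). Ta.25025.1.S1_x_at was at 12.55, 13.22 and 13.14 at 13 °C and at 10.19, 11.12 and 10.75 at 28 °C, a difference of 2.28 ± 0.25 (limma adjusted p = 0.000101). Both showed groups that were apart, by 1.79 and 1.43. Between pairs of Em/EMH2 probe sets the differences changed by at most 0.11, with exact two-sided permutation p from 0.3 to 0.8.

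Em is a family of closely related copies in wheat, so single genes cannot be told apart firmly on probe sets with shared probes. EM had no probe set of any other kind. In the RefSeq gene table of the assembly IWGSC CS RefSeq v2.1, used here for names and neighbours only, the span of Em/EMH2 overlaps that of a gene with the synonym EMH5, and a gene with the synonym Em lies 3 genes from EM.

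Among the 200 tested probe sets with an informative gene name, the 5 Em probe sets held the 5 largest differences in the direction of 13 °C. The next was PIMT, an enzyme that repairs damaged aspartyl residues of ageing proteins, at 2.27 against 2.28 for the smallest Em difference. This order turned with single arrays left out: PIMT was above 3 Em probe sets without array 1 of 28 °C, at 2.20, or array 2 of 13 °C, at 2.26, and above 1 without array 3 of 13 °C, at 2.23.

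LEA1, a group 3 LEA protein, was measured on 1 probe set with shared probes, Ta.23797.1.S1_x_at. It was at 11.78, 11.97 and 12.34 on the arrays of 13 °C and at 11.04, 11.26 and 11.18 on those of 28 °C. The groups were apart by 0.52. LEA1 rose by 0.87 ± 0.14 (SE; limma adjusted p = 0.00122), or 1.83-fold with an interval of 1.46 to 2.29, and 5.17% of all tested probe sets had a larger difference. The call was kept with any 1 array left out, at 0.72 to 0.99, but not under hybridisation or poly-A control scaling, as given above.

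Rab15, an abscisic acid responsive dehydrin, was high at 13 °C on arrays 2 and 3 only. On Ta.2704.1.S1_x_at it was at 8.83, 10.07 and 9.88 at 13 °C and at 8.48, 8.96 and 8.64 at 28 °C. Array 1 of 13 °C fell among the arrays of 28 °C, so the groups overlapped. This probe set passed with a difference of 0.90 ± 0.29 (SE; limma adjusted p = 0.0392).

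Ta.2704.1.S1_at, the Rab15 probe set of the same name without a suffix, was at 8.65, 10.04 and 9.81 at 13 °C and at 8.42, 8.91 and 8.61 at 28 °C. Its difference was 0.85 ± 0.32 (SE; limma adjusted p = 0.0697) and did not pass. The third probe set, TaAffx.46097.2.S1_at, was at 7.83, 8.54 and 8.36 at 13 °C and at 7.14, 7.98 and 7.81 at 28 °C, a difference of 0.60 ± 0.24 (limma adjusted p = 0.0886). Here too array 1 of 13 °C lay inside the range of 28 °C.

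The Rab15 result turned on single arrays. Without array 1 of 13 °C all 3 probe sets passed, at 1.28 on both Ta.2704.1 probe sets and 0.80 on the third. Without any other single array none of them passed, and the probe set called with all arrays was then at 0.67 to 1.03. As the mean of its probe sets Rab15 differed by 0.78 ± 0.27 (SE; limma adjusted p = 0.0536).

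COR410, a cold-induced acidic dehydrin, was measured on Ta.16419.1.S1_at. It was at 3.07, 3.43 and 3.29 at 13 °C and at 3.78, 3.87 and 3.58 at 28 °C. The groups were apart by 0.15, with 13 °C lower, and every value was below 4.71. The probe set fell by 0.48 ± 0.12 (SE; limma adjusted p = 0.013), but no fold is given, since neither group was above background. With values under the background guide set to it the difference was 0 and the call was lost. The call was lost without array 1 (adjusted p = 0.0524) or array 2 (adjusted p = 0.0579) of 28 °C, at -0.47 and -0.42.

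Scaling of the arrays changed the calls outside Em. The hybridisation controls, labelled bacterial transcripts spiked into the mix put on each array, had means of 11.53 ± 0.51 (SD, n = 3) for 13 °C and 10.90 ± 0.13 for 28 °C. The poly-A controls, spiked in before labelling, had means of 8.78 ± 0.89 and 8.33 ± 0.16. Scaling each array to them moved the median difference over all tested probe sets by -0.627 and -0.455. All 5 Em probe sets stayed past the threshold under both, at 1.66 to 2.01 with the hybridisation controls and 1.83 to 2.18 with the poly-A controls, where 1.07% and 0.325% of all tested probe sets were called higher. The SE was then the same for all probe sets named here, 0.33 and 0.54. Calls under these scalings thus rest on a pooled spread and not on that of each probe set. For Ta.2798.1.S1_x_at the limma adjusted p was 3.11e-08 with the hybridisation controls, below 1.12e-05 on the deposited values, although its SE rose from 0.19. Besides LEA1, the called Rab15 probe set no longer passed, at 0.28 and 0.45. The third Rab15 probe set was at -0.029 with the hybridisation controls. COR410 was called at -1.11 with the hybridisation controls and not called at -0.94 with the poly-A controls.

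**Figure D2:**
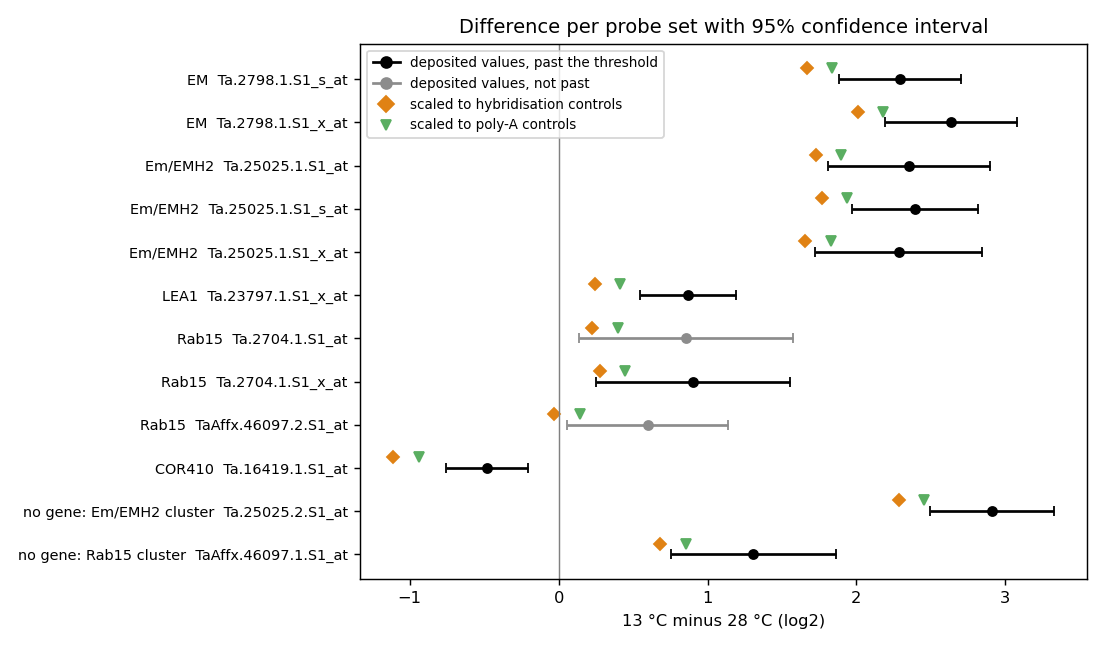
Difference 13 °C minus 28 °C (log2, horizontal axis) of each member probe set and of the 2 probe sets of the same clusters without an annotated gene, with 95% confidence intervals, black where past the threshold and grey where not. Diamonds and triangles give the difference after scaling to hybridisation and poly-A controls: the 5 Em probe sets stay above 1.6 with both, and LEA1 and Rab15 move towards 0.

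A difference between genes taken on the same array is free of any shift of that whole array. With each gene as the mean of its probe sets, 10 pairs of genes were compared, and in 8, of which 4 involve COR410, the arrays of 13 °C were apart from those of 28 °C (exact two-sided permutation p = 0.1 each, the smallest possible; 0.125 adjusted over the 10 pairs, so that no pair can pass). The pairs reuse the same genes, and how often pairs among all tested probe sets are apart was not computed. EM minus LEA1 was 1.33, 1.55 and 1.26 at 13 °C and -0.46, 0.0034 and -0.19 at 28 °C. The change in EM was thus larger than that in LEA1 by 1.59 ± 0.16 (SE), or 3.02-fold. EM exceeded Rab15 in the same way by 1.68 ± 0.21, and Em/EMH2 exceeded LEA1 by 1.47 ± 0.22 and Rab15 by 1.56 ± 0.17.

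EM minus Em/EMH2 was 0.24, 0.057 and 0.17 at 13 °C and 0.12, -0.026 and 0.017 at 28 °C. The groups overlapped, and the changes of these genes differed by 0.12 ± 0.068 (SE; exact two-sided permutation p = 0.2). Both EM probe sets are marked as sharing probes, so this likeness is not shown for EM apart from related copies. LEA1 minus Rab15 overlapped as well, at 3.35, 2.42 and 2.99 at 13 °C and 3.02, 2.65 and 2.82 at 28 °C, with a change of 0.086 ± 0.29 (exact two-sided permutation p = 0.9). The 4 pairs with COR410, which was under the background guide on every array, give no size for a change between genes. Without them 4 of 6 pairs were apart. These all set EM or Em/EMH2 against LEA1 or Rab15, so they are not 4 separate results.

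**Figure D3:**
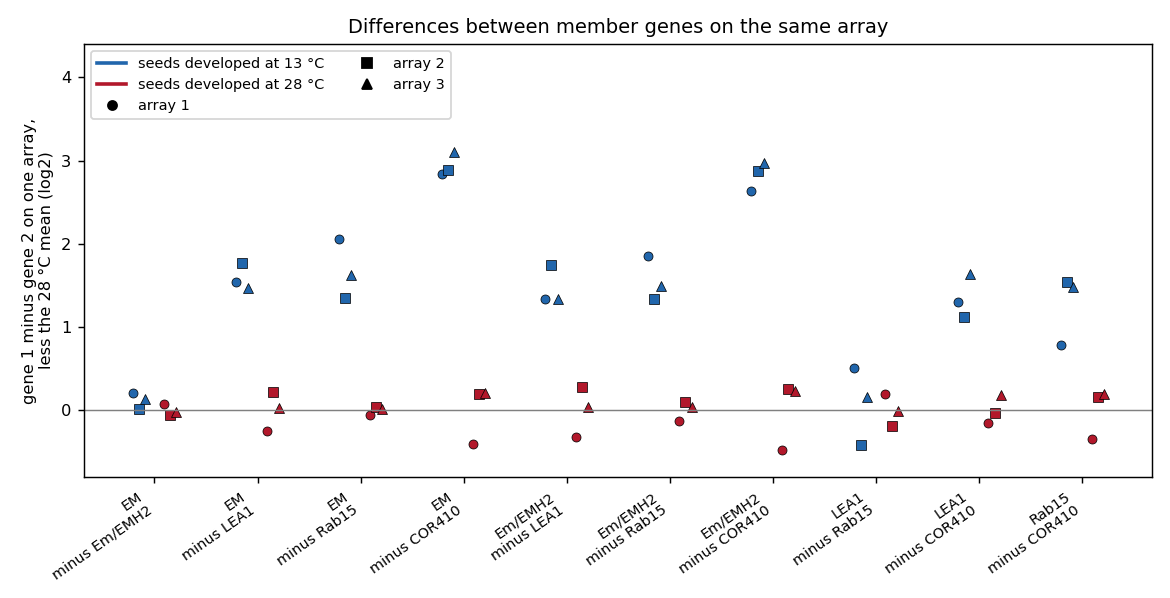
Within-array difference between 2 member genes (log2, vertical axis), less its mean at 28 °C, for the 10 pairs, with 1 point per array, blue for 13 °C and red for 28 °C. The 13 °C arrays lie apart from the 28 °C arrays in 8 pairs, 4 of them with COR410, which was under the background guide, and overlap for EM against Em/EMH2 and LEA1 against Rab15.

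The members also shared a pattern among replicates. Array 1 was the lowest of the 13 °C arrays for all 10 member probe sets and the lowest of the 28 °C arrays for 9 of them, the exception being COR410. For 9 members array 1 was the lowest at both temperatures, which held for 14.4% of all tested probe sets. Probe sets of a gene share transcripts, so these are 4 genes and not 9 separate measurements. The pattern was not particular to the members: PIMT, WGA2 and WZF1, a gene described below, had it too, while PER1, PCS1 and AGA.1, also below, did not. Over all tested probe sets the deviations of same-numbered arrays from their group means correlated at only 0.012 to 0.044. The numbers thus did not pair the arrays over the whole table, and a pairing limited to the members was not tested.

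Another 2 probe sets carry the cluster number of a member in their names without belonging to the members, since the annotation gives them no gene. Ta.25025.2.S1_at, of the Em/EMH2 cluster, was at 13.32, 13.83 and 13.81 at 13 °C and at 10.44, 11.08 and 10.71 at 28 °C. Its rise of 2.91 ± 0.18 (SE; limma adjusted p = 4.88e-06), or 7.52-fold, was above that of every annotated Em probe set. TaAffx.46097.1.S1_at, of the cluster that holds the third Rab15 probe set, was at 7.75, 8.74 and 8.57 at 13 °C and at 6.76, 7.28 and 7.09 at 28 °C. It rose by 1.31 ± 0.24 (limma adjusted p = 0.00268) with groups apart by 0.47. The Rab15 probe sets, by contrast, all overlapped between temperatures. Under both control scalings the first stayed past the threshold, at 2.28 and 2.46, and the second did not, at 0.68 and 0.85.

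Likeness to Em was measured as the root mean square difference over the 6 arrays between log2 profiles centred on their own mean, with the mean of the 5 Em probe sets as the reference. The Em probe sets themselves lay at 0.040 to 0.13, a closeness partly built in, since they make up the reference. LEA1 lay at 0.79, Rab15 at 0.78 to 0.90 and COR410 at 1.46. Outside Em, 21 tested probe sets lay within the largest Em distance, the closest at 0.057. The closest probe set with an annotated gene lay at 0.126, and the nearest gene with an informative name was PIMT at 0.19. It was at 9.37, 9.53 and 9.59 at 13 °C and at 7.07, 7.49 and 7.09 at 28 °C, a difference of 2.27 ± 0.13 (SE).

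The next named genes were PER1 at 0.44, PCS1, phytochelatin synthase, at 0.47, WZF1, a zinc finger protein, at 0.60 and AGA.1 at 0.64. Their differences were 1.57 ± 0.16, 1.62 ± 0.09, 1.34 ± 0.29 and 1.23 ± 0.09 (SE). Since likeness to Em over these arrays already fixes a large difference, the values of these genes and of PIMT are a description. WZF1 resembled Rab15 in that array 1 of 13 °C was low, at 6.02 against 7.13 and 7.31 on the other 13 °C arrays. In all, 573 tested probe sets outside Em lay within 0.5 of its profile, and the annotation pairs 21 of them with a gene.

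**Figure D4:**
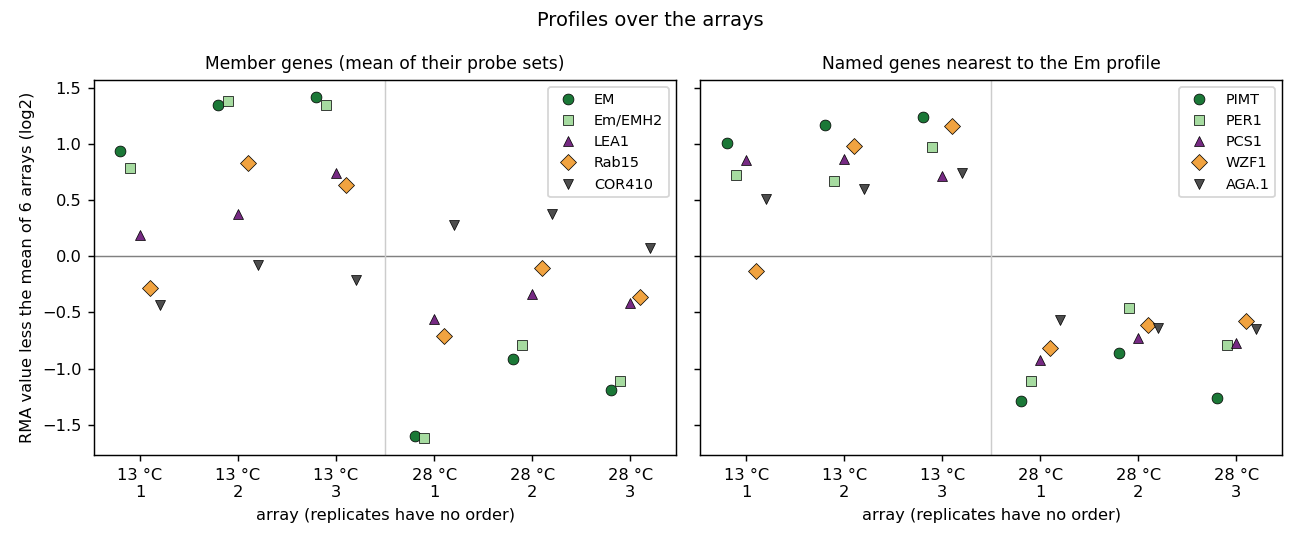
RMA values less each gene's own mean over the 6 arrays (log2, vertical axis) by array, for the 5 member genes on the left and the 5 nearest named genes on the right. EM and Em/EMH2 lie together on every array, though all their probe sets but Ta.25025.1.S1_at are marked as sharing probes. PIMT is the named gene closest to them.

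The related genes that the annotation names were few. Of the names sought for other LEA proteins, dehydrins and cold genes, and for genes of the abscisic acid response, 0 were found among the annotated symbols and synonyms. The seed maturation and desiccation list, matched by gene name only, held 9 probe sets of 5 genes, of which 6 were called higher and 0 lower, while 3 did not pass. Over all tested probe sets 18.5% were called higher and 15.1% lower. The list's median difference was 0.53. PIMT and PER1 rose by the differences given above (limma adjusted p = 2.65e-06 and 7.52e-05), and PER1 has synonyms that do not settle its function. WGA2, an agglutinin of the wheat embryo, was at 12.75 ± 0.12 (SD, n = 3) against 11.96 ± 0.16, a rise of 0.80 ± 0.11 (SE; limma adjusted p = 0.000462). Prx1, a peroxidase by name, rose by 0.77 ± 0.20 (limma adjusted p = 0.0152) on its most changed probe set, whose 4.19 at 28 °C was below the background guide. Array 3 of 13 °C, at 4.47, was below it too. The Prx1 call was lost without array 1 of 13 °C (limma adjusted p = 0.0617). It was also lost without array 2 or array 3 of 28 °C (limma adjusted p = 0.066 and 0.0664). Under the hybridisation and poly-A control scalings 2 and 1 of the 9 were called higher, beside 1.07% and 0.325% of all tested probe sets. PIMT was called under both and PER1 under hybridisation scaling only, while WGA2 and Prx1 were called under neither.

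The labelled tissue was checked against marker genes. WGA2, the embryo marker and also counted in the seed maturation list, was bright on all 6 arrays, at 11.79 to 12.86. Of 13 probe sets for gliadins, glutenins and starch enzymes of the starchy endosperm, 4 were above the background guide and 0 passed the limma test in either direction. At an unadjusted p under 0.05 there was 1 of them, a gliadin that differed by 0.19 (adjusted p = 0.11). The endosperm list averaged 4.24 to 4.35 on the 13 °C arrays and 4.23 to 4.25 on those of 28 °C. Of 28 rbcl probe sets, which stand for the large subunit of rubisco and served as green tissue markers, 6 rose, 0 fell and 4 were above the background guide, where 18.5% of all tested probe sets were called higher. The rbcl list averaged 4.15 to 4.33 on the 13 °C arrays and 3.94 to 3.99 on those of 28 °C. Its largest rise was on a bright probe set, from 12.78 at 28 °C to 13.91 at 13 °C, and was not called under hybridisation (adjusted p = 0.207) or poly-A (adjusted p = 0.803) control scaling. The gap of sucrose synthase between its 3-prime and 5-prime probe sets was 7.24 ± 0.58 (SD, n = 3) at 13 °C and 6.40 ± 0.04 at 28 °C. That of G6PDH, a second such control, was 3.20 ± 0.54 and 2.30 ± 0.17. For both controls every array of 13 °C lay above every array of 28 °C (exact two-sided permutation p = 0.1 each, the smallest possible). The part of plastid transcripts or RNA length in the Em and LEA1 rises was not tested.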

How the data were processed

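Affymetrix wheat GeneChip signals of 6 arrays, 3 of grain ripened at 13 °C and 3 at 28 °C, were analysed as deposited: log2 probe set values from RMA by the authors, per the submitters' processing notes. For RMA, the version is not given in the sources used here. The number of arrays limits precision.

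Of 61290 probe sets, 111 Affymetrix controls were left out and 61179 tested with limma 3.58.1 in R 4.3.3 (lmFit and eBayes, 2 groups, no covariate, two-sided, Benjamini-Hochberg over all tested probe sets, threshold 0.05). The platform annotation, an older release, gave 1 gene for 1273 of the tested probe sets, several for 0 and none for 59906; 1272 matched the RefSeq gene table. Gene pairs were compared by exact permutation in Python 3.11.15 with scipy 1.17.1. The fit was tested on simulated data. The members, gene lists and tests were chosen with earlier results of these data known.

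All members are named. Of each list the 4 most changed past the threshold (or the 2 smallest p) could be named, and of genes like Em the 5 nearest. Alternatives covered scaling, dim probe sets, the prior, a replicate block, probe set choice and left-out arrays. Promoter and protein features were not analysed here.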

Additional observations from a re-analysis of the deposited data

How the results depend on the processing

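The 5 Em probe sets stayed past the threshold under every alternative in which they were fitted with more than 1 array per group. Under the hybridisation and poly-A scalings these calls rest on a pooled spread, as given above. The count of 7 members called higher ranged from 6 to 9 with 1 array left out. It was 9 with the replicate number as a block. The block lowered the SE of Ta.25025.1.S1_at from 0.24 to 0.10 and that of COR410 from 0.12 to 0.11. Over all tested probe sets, however, the deviations of same-numbered arrays from their group means correlated at only 0.044, 0.012 and 0.020. The numbers thus did not pair the arrays over the whole table, and a pairing limited to the members was not tested. The count was 1 of 4 without probe sets with shared probes, that of Em/EMH2, so most of the 7 calls came from probe sets with shared probes. In that fit 8138 of 48453 tested probe sets were called higher. With 1 value per gene the count was 3 of 5. The 1 member called lower, COR410, ranged from 0 to 1 with 1 array left out and was 0 under poly-A scaling, with dim probe sets filtered or floored, and without arrays 1 and 2 of 13 °C, which leaves 1 array there and takes all of the spread from 28 °C. In the seed maturation list the 6 higher calls became 2 and 1 under hybridisation and poly-A scaling, and 4 to 6 with 1 array left out. The 8 gene pairs with groups apart became 4 (of 6) when COR410 was left out as dim, and 8 to 9 with 1 array left out. Signs turned under hybridisation scaling for the third Rab15 probe set (-0.029), an rbcl probe set (-0.074) and the gliadins gli-2 (-0.44) and GAG56D (-0.35), and under poly-A scaling for these gliadins (-0.26 and -0.17). With the brightest probe set per gene, EM minus Em/EMH2 changed by -0.10 and LEA1 minus Rab15 by -0.032; the latter ranged from -0.13 to 0.34 with 1 array left out, and was below 0 without array 1 of 13 °C and without array 2 of 28 °C (-0.0058). Over all tested probe sets 11304 were higher and 9213 lower, against 654 and 11815 under hybridisation scaling and 199 and 2803 under poly-A scaling. The cause of these changes was not tested.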
